A study of Mus musculus with 8 samples.

Results

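Oxidative phosphorylation makes most of the ATP of a resting cell. Complexes I and II pass electrons from NADH and succinate to ubiquinone, complex III passes them on to cytochrome c, complex IV hands them to oxygen, and complex V, the ATP synthase, uses the proton gradient that complexes I, III and IV build. Complex I and complex III are also known as sites where superoxide, a source of hydrogen peroxide, is formed. Most subunits are encoded in the nucleus, and the genes described here are 83 such nuclear genes, matched by name among the 19041 rows of a table of read counts. They comprise 37 genes of complex I, 4 of complex II, 9 of complex III, 15 of complex IV, 17 of complex V and Cycs, which encodes cytochrome c. The name rule also took in Atp5s and Atp5sl, which are not structural subunits of the synthase, and Ndufa4 and Ndufa4l2, which are named for complex I although the Ndufa4 protein is now placed in complex IV. Mitochondrially encoded subunits were not analysed here.

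The cells were immortalised mouse embryonic fibroblasts (MEFs) of Stat3 fl/fl origin. In all 4 groups the cells' own Stat3 had been deleted with a retrovirus carrying Cre and Thy1.1, and a second transduction then brought in GFP with a Stat3 cDNA. WT cells received WT-Stat3. C3S cells received Stat3-C3S, in which redox-sensitive cysteines are replaced. Both lines were polyclonal populations sorted for their marker proteins, so each line stands for 1 transduced population. They were left untreated (basal) or given 100 µM H2O2 for 2 h, with 2 libraries in each of the 4 groups, 8 libraries in all. The study calls the libraries of a group biological replicates without saying whether they were separate cultures, and the p-values measure the spread between these samples. Stat3 is a transcription factor that also occurs in mitochondria, where it is known to act on the respiratory chain, and Ndufa13 (also called Grim19) is the complex I subunit known to bind it.

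Library totals ran from 17050016 to 22260814 counts, of which the 83 genes took between 0.642% and 0.762%. The Stat3 transcript stood between 7425 and 8835 normalised read counts in the WT libraries and between 4650.4 and 5160.5 in the C3S libraries, and these reads do not separate introduced from remaining transcript. Of 10 fibroblast markers, 9 were in the table, none of them at 0 in any group. They summed to between 272059 and 273691 normalised counts in WT basal, 208777 and 215914 in WT H2O2, 243070 and 244753 in C3S basal and 215649 and 221763 in C3S H2O2. With peroxide 9 of the 9 fell in WT cells (median -0.72 on the log2 scale) and 7 of the 9 in C3S cells (median -0.30), and 4 were called in the difference of the responses, in the positive direction. Among all genes tested, 26.2% fell and 18.1% rose in WT cells, and 20.8% fell and 17.2% rose in C3S cells. The difference of the responses was called in the positive direction for 9.18% of them. The 5 leukocyte markers in the table summed to between 32.9 and 55.3 in WT basal, 111 and 117 in WT H2O2, 17.9 and 28.8 in C3S basal and 97.8 and 145 in C3S H2O2, and the 2 that could be tested, Cd68 and Itgam, rose in both lines, while the defining leukocyte gene Ptprc reached at most 3.33. The 5 epithelial markers, of which 4 could be tested and all 4 were lower in C3S cells, summed to between 519 and 666 in WT libraries and to between 32.6 and 78.1 in C3S libraries. Lower in C3S cells were 28.9% of all genes at baseline and 31.9% after peroxide. The 6 muscle markers in the table summed to between 188 and 299 and to between 17.6 and 68.8, with Ckm and Myh3 at 0 in both basal groups. The 4 endothelial markers went the other way, from 83.0 to 106 in WT libraries and from 200.02 to 248 in C3S libraries, with Cdh5 at 0 in the WT groups. The sums of the fibroblast, leukocyte, epithelial and muscle lists thus did not overlap between the basal and the H2O2 libraries of either line. Those of the epithelial, muscle and endothelial lists did not overlap between the lines. The fibroblast and leukocyte sums did not overlap between the lines at baseline. Of the 9 fibroblast markers, 4 were higher and 3 lower in C3S cells at baseline, and 5 were higher and 3 lower after peroxide. Higher in C3S cells were 28.7% of all genes at baseline and 32.5% after peroxide. The part of these lists in the differences given below was not tested. In bulk RNA, fewer cells of a type and less RNA per cell cannot be told apart.

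Of the 83 genes, 78 reached the count filter, a mean of at least 10 counts in some group, and 5 did not. The 5 were isoforms known from other tissues or from hypoxia. Cox6a2 and Cox7a1, the isoforms of heart and skeletal muscle, summed to between 3 and 5 counts and between 1 and 4 counts over the 2 libraries of a group. Cox6b2, known from testis, had 2 counts in WT basal, 9 in WT H2O2, 0 in C3S basal and 1 in C3S H2O2. Cox4i2, an oxygen-responsive isoform of subunit 4, had 0 counts in both basal groups, 1 in WT H2O2 and 2 in C3S H2O2. Ndufa4l2, a gene induced in hypoxia, had 2 counts in C3S H2O2 and 0 in the other groups. A group total of 0 still allows up to 3 counts. These 5 genes were not tested.

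Levels between genes were compared as normalised counts per kilobase of annotated exon, averaged over the 8 libraries. Complex V held the widest range among the genes tested. Atp5b, which encodes the catalytic beta subunit of the synthase, stood at 7128 ± 1094 per kb (mean ± SD, n = 8 libraries), and Atp5a1, the alpha subunit, at 4750.2 ± 327. Atp5s stood at 32.4 ± 5.29 per kb. In complex I the highest level was that of the accessory subunit Ndufb9, 1043 ± 141 per kb, and the lowest among tested genes that of Ndufs5, 21.2 ± 10.4 per kb. Complex II ran from 455 ± 64.1 per kb for the membrane anchor Sdhc to 1492 ± 85.7 for the other anchor, Sdhd. In complex III the Rieske iron-sulphur protein Uqcrfs1 was highest at 1217 ± 78.6 per kb and the small subunit Uqcrq lowest at 370.1 ± 60.4. Cox8a led complex IV at 2236 ± 238 per kb. The order depends on which exons are counted as length. With the length of the principal transcript, Atp5b remained first in complex V at 15762 per kb, whereas Uqcrfs1 became the seventh of 9 in complex III and Cox8a the fourth of 15 in complex IV.

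Nrf1 (nuclear respiratory factor 1) and the ETS factor Gabpa are known regulators of nuclear respiratory genes, and their sites were searched for in the 250 bases before the RefSeq start of each gene (GRCm38.p6). RefSeq windows matched 68 of the 83 members by name. The Nrf1 letters GCGCATGC, or GCATGCGC on the other strand, occurred in 9 of the 68 (13.2%) and in 2.56% of 27025 genes. The ETS site CCGGAAGT, or ACTTCCGG, occurred in 3 (4.41%) and in 3.23% of all genes. The Yy1 letters AAGATGGC, or GCCATCTT, occurred in 2 (2.94%) and in 1.83% of all genes. The core of the hypoxia response element, ACGTG or CACGT, occurred in 16 (23.5%) and in 18.5% of all genes, and the Stat3 inducible element TTCCNGGAA in 1 (1.47%) and in 1.09% of all genes. The windows hold no reading of these factors, and a match is a description of letters. For each gene with the Nrf1 or the ETS letters, 30 bases around a match are shown, 5′ to 3′ on the strand of the gene, with the match in capitals; GCGCATGCGC contains overlapping matches on both strands.
Nrf1 letters:
Atp5g2: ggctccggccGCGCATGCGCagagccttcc
Atp5k: tttcactgcgGCGCATGCGCctttctggct
Atp5l: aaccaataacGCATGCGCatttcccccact
Cox6a1: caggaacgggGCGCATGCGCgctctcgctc
Cycs: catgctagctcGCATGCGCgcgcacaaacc
Ndufa11: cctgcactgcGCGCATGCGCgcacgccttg
Ndufa6: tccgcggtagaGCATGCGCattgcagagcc
Ndufa8: gcgcttgcgcgtcgctggagacGCATGCGC
Sdhb: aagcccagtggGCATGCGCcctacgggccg
ETS site:
Atp5h: ccaaggagagaACTTCCGGcaactctcttc
Uqcr11: ttctctcctccCCGGAAGTagatgtcaatg
Uqcrh: actacgaggagtatgccgcACTTCCGGcca
The stretches lie at Atp5g2 chr15:102671070-102671099 (minus), Atp5h chr11:115419940-115419969 (minus), Atp5k chr5:108434430-108434459 (minus), Atp5l chr9:44920963-44920992 (minus), Cox6a1 chr5:115349101-115349130 (minus), Cycs chr6:50566611-50566640 (minus), Ndufa11 chr17:56717692-56717721 (plus), Ndufa6 chr15:82354356-82354385 (minus), Ndufa8 chr2:36049339-36049368 (minus), Sdhb chr4:140961206-140961235 (plus), Uqcr11 chr10:80406869-80406898 (minus), Uqcrh chr4:116075071-116075100 (minus).

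The first comparison asks what 2 h of peroxide did to these transcripts in cells with oxidisable Stat3. WT cells given H2O2 held more transcript of the complex I genes Ndufa13, Ndufa11 and Ndufv1, of Cox4i1 and Cox6a1 in complex IV and of Atp5h in complex V, each between 0.28 and 0.38 higher on the log2 scale, and less of the complex I gene Ndufs1. In all, 20 of the 78 tested genes were higher and 1 was lower at an adjusted p under 0.05 (edgeR's quasi-likelihood test, adjusted by Benjamini-Hochberg over all genes). Over all 13535 genes tested the same rule called 18.1% higher and 26.2% lower, beside 25.6% and 1.28% of the members. None was called with a change of 2-fold or more, a size reached by 9.36% of all genes in either direction. The median log2 fold change was 0.08 over the members and -0.02 over all genes. By complex, 6 of 36 genes rose in complex I, 0 of 4 in complex II, 1 of 9 in complex III, 6 of 11 in complex IV and 7 of 17 in complex V, with median log2 fold changes of 0.07, 0.04, 0.06, 0.15 and 0.11. Both H2O2 libraries lay above both basal libraries in 34 of 78 members and below them in 4 of 78, against 32.6% and 38.9% of all genes. The 6 rises named here kept an adjusted p under 0.05 whichever library was left out, and the other 15 calls did not. The count varied with the libraries used, with 33 members called without WT basal library 1, 7 without WT basal library 2, 11 without WT H2O2 library 1 and 11 without WT H2O2 library 2. DESeq2 also called 6, which were Ndufa13, Ndufv1, Cox6a1, Atp5h, Cox8a and Ndufs1, and in it Ndufa11 and Cox4i1 had adjusted p of 0.0774 and 0.0726.

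**Figure D1:**
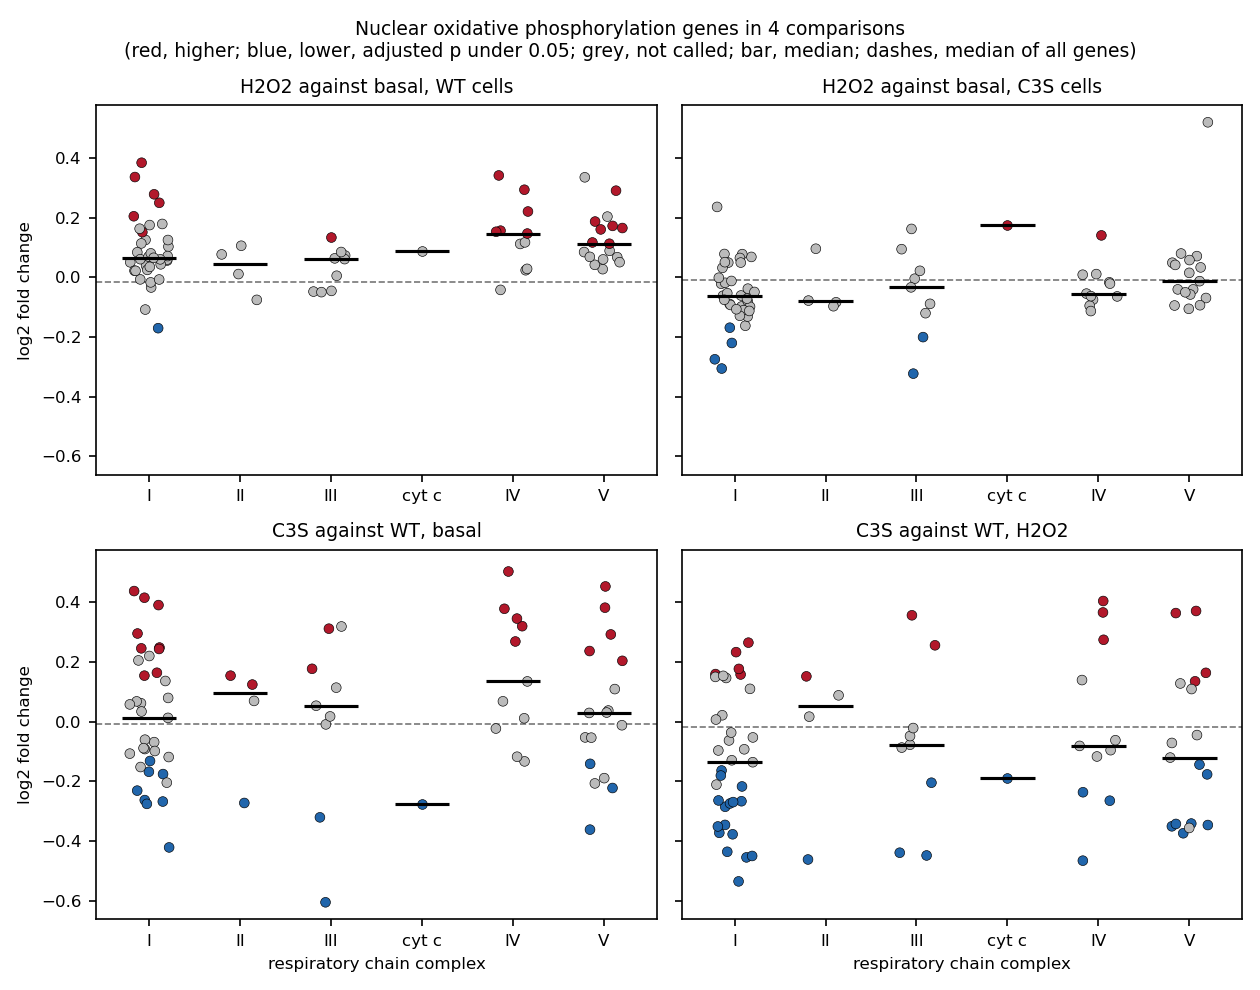
Log2 fold changes (y axis) of the tested genes by complex (x axis) in the 4 comparisons. Each point is 1 gene, red or blue where its adjusted p was under 0.05, the black bar is the median of the plotted genes of a complex and the dashed line the median of all genes tested; Ndufs5, which had the lowest counts of the genes tested, is left out. In WT cells the called points lie above 0 but for Ndufs1, and after H2O2 the C3S-to-WT differences lie mostly below 0 in complexes I and V, where 16 and 7 genes were called lower.

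Ndufa13 is the Stat3-binding subunit of complex I (chromosome 8, 69894180 to 69902558, minus strand, GRCm38). Its normalised read count was 454 and 406 in the WT basal libraries, 570.5 and 552 in WT H2O2, 487 and 419.7 in C3S basal and 452 and 412 in C3S H2O2. Both WT H2O2 libraries lay above all 6 others. The rise in WT cells was 0.38 on the log2 scale (SE 0.0832, adjusted p = 8.34e-05). Ndufa13 overlaps Tssk6 on the opposite strand and shares 28.5% of its 50-base stretches with Tssk6 or the pseudogene Gm12389, so its reads are uncertain to that extent. Ndufv1, which carries the flavin and binds NADH (chromosome 19, 4007384 to 4012806), read 1541 and 1507 in the WT basal libraries, 1873 and 1824 in WT H2O2, 1609 and 1567 in C3S basal and 1556 and 1511 in C3S H2O2. The 2 WT H2O2 libraries again stood above the other 6, and the rise was 0.28 (SE 0.0522, adjusted p = 6.76e-06). No 50-base stretch of Ndufv1 occurred in another gene. Ndufa11, an accessory subunit of the membrane arm (chromosome 17, 56717767 to 56722141), was at 321 and 299.7 in the WT basal libraries, 394 and 391 in WT H2O2, 433 and 410.3 in C3S basal and 428 and 368 in C3S H2O2. Here the WT basal libraries were the low ones, below all 6 others. Ndufa11 overlaps Vmac on the opposite strand, and the rise with peroxide was 0.34 (SE 0.0975, adjusted p = 0.00325).

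In complex IV, Cox6a1 encodes the widely expressed isoform of subunit 6a (chromosome 5, 115345642 to 115348981). Its upstream window holds the Nrf1 letters printed above. It read 1344 and 1318 in the WT basal libraries, 1628 and 1635 in WT H2O2, 1288 and 1172 in C3S basal and 1224 and 1138 in C3S H2O2. The WT H2O2 libraries lay above all 6 others, and the rise was 0.29 (SE 0.0538, adjusted p = 4.25e-06). Cox4i1, the usual isoform of subunit 4 (chromosome 8, 120668222 to 120674207), read 2501 and 2046 in the WT basal libraries, 2785 and 2985 in WT H2O2, 2797 and 2690.3 in C3S basal and 2883 and 2641 in C3S H2O2. WT basal library 2 was the lowest of the 8, and the WT rise was 0.34 (SE 0.0916, adjusted p = 0.0219). Without that library the rise was 0.21, and the call was lost with TMM scaling (adjusted p = 0.0545) and in DESeq2. Cox4i1 overlaps Emc8 on the opposite strand. Cox8a read 1461 and 1224 in the WT basal libraries, 1576 and 1558 in WT H2O2, 1308 and 1337 in C3S basal and 1430.4 and 1177 in C3S H2O2 and rose by 0.22 in WT cells (SE 0.0591, adjusted p = 0.00189). For Cox8a the adjusted p was 0.183 without WT basal library 2. Cox6b1 rose by 0.16 (SE 0.0578, adjusted p = 0.0221), from 1139 and 1116 to 1209.7 and 1305. For Cox6b1 the adjusted p was 0.0735 without WT basal library 2 and 0.338 without WT H2O2 library 2. Cox7c rose by 0.15 (adjusted p = 0.0429) and 53.0% of its 50-base stretches occur in other genes. For Cox7c the adjusted p was 0.656 without WT basal library 2 and 0.386 without WT H2O2 library 2. Cox7b, at 1236 and 1148 in the WT basal libraries, 1191 and 1242 in WT H2O2, 1254 and 1156 in C3S basal and 1191 and 1108 in C3S H2O2, had an adjusted p of 0.721 in WT cells and was called in no comparison.

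In complex V the genes of the membrane part and the peripheral stalk held 6 of the 7 rises, out of 10. The 5 genes of the F1 part, which comprises the catalytic head and the central stalk, held 1, that of Atp5e, which encodes a subunit of the stalk. Atp5h, the d subunit of the peripheral stalk (chromosome 11, 115415689 to 115419962), read 1147 and 1165 in the WT basal libraries, 1409.7 and 1418 in WT H2O2, 1091 and 1009.7 in C3S basal and 1156 and 1024 in C3S H2O2. The WT H2O2 libraries lay above the rest, and the rise was 0.29 (SE 0.0559, adjusted p = 1.11e-05). Because 47.9% of its 50-base stretches occur in other genes, mostly pseudogenes, its count is uncertain. The proton-conducting ring of the synthase is built from 1 protein encoded by 3 genes, Atp5g1, Atp5g2 and Atp5g3. Atp5g1 read 1328 and 1151 in WT basal and 1413 and 1413 in WT H2O2, a rise of 0.19 (SE 0.0578, adjusted p = 0.00604). Atp5g2 went from 3079 and 2865 to 3216 and 3232, by 0.12 (SE 0.0464, adjusted p = 0.0340), and Atp5g3 from 3662 and 3551 to 3861 and 3939, by 0.11 (SE 0.0442, adjusted p = 0.0316). In WT cells the 3 ring genes thus rose, each by a small amount. For Atp5g1 the adjusted p was 0.265 without WT basal library 2. For Atp5g2 the adjusted p was 0.261 without WT basal library 2, 0.173 without WT H2O2 library 1 and 0.199 without WT H2O2 library 2. For Atp5g3 the adjusted p was 0.0874 without WT basal library 2, 0.138 without WT H2O2 library 1 and 0.269 without WT H2O2 library 2. Of Atp5g2, 87.4% of the 50-base stretches are shared with other genes.

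Ndufs1 was the member that fell in WT cells. It encodes the large iron-sulphur core subunit of complex I and read 2285 and 2404 in the WT basal libraries, 2001 and 2165 in WT H2O2, 1981 and 2183 in C3S basal and 1738 and 1845 in C3S H2O2. The H2O2 libraries were lower than the basal libraries in each line, and the gene overlaps Eef1b2 on the opposite strand. The fall was -0.17 in WT cells (SE 0.0502, adjusted p = 0.00378) and -0.22 in C3S cells (SE 0.0552, adjusted p = 0.00352). In WT cells the adjusted p was 0.219 without WT H2O2 library 1. In C3S cells the adjusted p was 0.133 without C3S basal library 2. Besides Ndufs1, Cox7a2l was called in both responses, and both were called in the same direction in each line.

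Transcript length moved with the peroxide response. The members are short, with a median of 781 bases over the mean transcript length of each gene against 1812 for all genes, and 74 of the 78 were of up to 1500 bases. Over all genes in WT cells the median log2 fold change fell from 0.10 for transcripts of up to 600 bases to -0.20 for those over 3000. Among genes of up to 1500 bases it was 0.06, with 22.4% called higher and 11.1% lower, close to the members' median of 0.08. After an offset for the length trend, chosen after seeing the data, 11 members were higher and 5 lower in WT cells, with a median of 0.03. Over all genes the same offset gave 3132 higher and 2409 lower, also with a median of 0.03. Of the 20 rises, 9 kept their call under that offset, among them Ndufa13, Ndufv1, Ndufa11, Cox6a1, Cox4i1 and Atp5h.

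**Figure D2:**
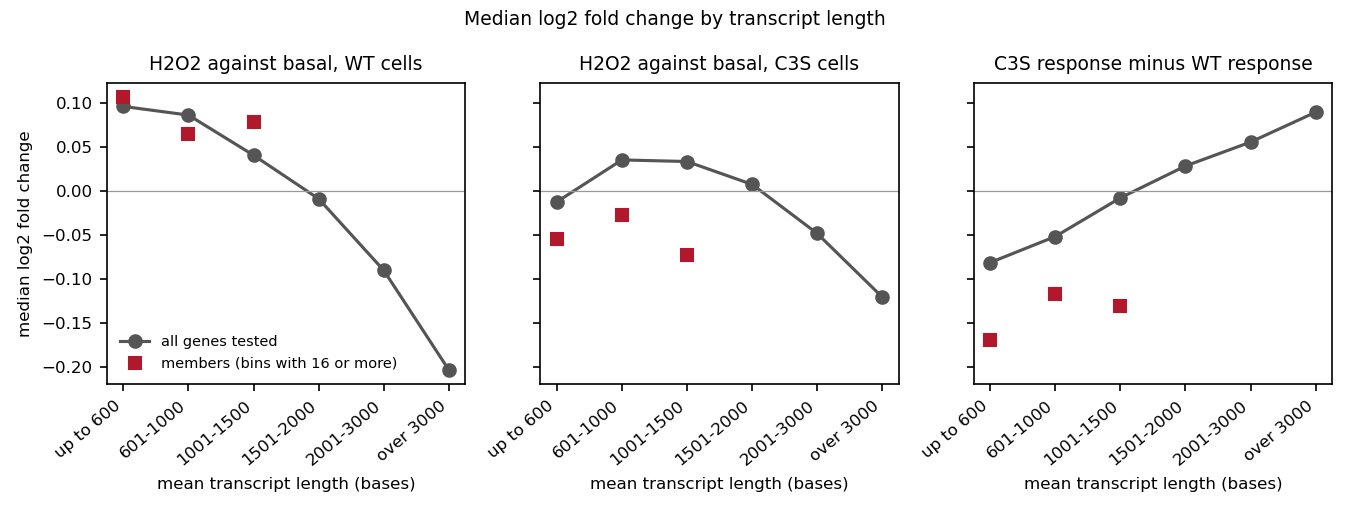
Median log2 fold change (y axis) by mean transcript length in bases (x axis) for all genes tested (grey line) and for the members (red squares, in the bins with at least 16 of them). In WT cells the members sit near the line of all genes, from 0.06 to 0.11 in their 3 bins; in C3S cells and in the difference of responses they sit below it.

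In the cells with redox-insensitive Stat3, peroxide raised Cycs and Cox7a2l and lowered Uqcr11, Uqcrb, Ndufb2, Ndufb4, Ndufb9 and Ndufs1. That is 2 rises and 6 falls among 78 genes, with a median of -0.05 against -0.01 for all genes. Of all genes, 17.2% were called higher and 20.8% lower in this comparison, beside 2.56% and 7.69% of the members. Complexes II and V had 0 calls. Members called by 2-fold or more numbered 0, against 8.66% of all genes. Leaving out 1 library changed the count of 8 to 2 (without C3S basal library 1 or 2), 16 (without C3S H2O2 library 1) or 3 (without C3S H2O2 library 2), and DESeq2 called 2, Cycs and Ndufs1. None of the 8 calls held whichever library was left out. Both H2O2 libraries lay above both basal libraries in 9 of 78 members and below them in 21 of 78, against 32.6% and 35.5% of all genes. Stretches of 50 bases shared with other genes made up 43.4% of those of Uqcrb, 37.0% of Ndufb4, 28.5% of Cycs, 23.4% of Ndufb9 and 19.8% of Cox7a2l. The shares were 10.9% for Uqcr11, 5.93% for Ndufs1 and 5.39% for Ndufb2. Uqcrb also overlaps Gm10767 on the opposite strand.

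Cycs, which encodes the carrier between complexes III and IV that also triggers apoptosis when it leaves the mitochondrion, read 3038 and 2989 in the WT basal libraries, 3082 and 3322 in WT H2O2, 2518 and 2459 in C3S basal and 2887 and 2733 in C3S H2O2. The C3S basal libraries were the lowest of the 8. The rise with peroxide in C3S cells was 0.18 (SE 0.0473, adjusted p = 0.00589). For Cycs the adjusted p was 0.0793 without C3S basal library 2 and 0.0615 without C3S H2O2 library 1. In WT cells it was 0.09 (adjusted p = 0.123). Cox7a2l, whose product links complexes III and IV into supercomplexes, read 1356 and 1302 in the WT basal libraries, 1454 and 1502 in WT H2O2, 1730.0 and 1726 in C3S basal and 1965 and 1843 in C3S H2O2 and rose in both lines, by 0.15 in WT cells (SE 0.0547, adjusted p = 0.0180) and by 0.14 in C3S cells (SE 0.0513, adjusted p = 0.0363). In WT cells the adjusted p was 0.0991 without WT basal library 2, 0.0555 without WT H2O2 library 1 and 0.179 without WT H2O2 library 2. In C3S cells the adjusted p was 0.128 without C3S basal library 1, 0.162 without C3S basal library 2 and 0.261 without C3S H2O2 library 1.

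The largest falls in C3S cells were those of Uqcr11, Ndufb2 and Ndufb4, which encode small accessory subunits of complexes III and I. Uqcr11 read 571 and 440.0 in the WT basal libraries, 500.1 and 567 in WT H2O2, 706 and 567 in C3S basal and 559 and 451 in C3S H2O2. Both C3S H2O2 libraries were below both C3S basal libraries, though library 1 of the former lay close to library 2 of the latter. The fall was -0.32 (SE 0.113, adjusted p = 0.0381). For Uqcr11 the adjusted p was 0.340 without C3S basal library 1 and 0.144 without C3S H2O2 library 2. Ndufb2 read 314 and 333 in the WT basal libraries, 322 and 336 in WT H2O2, 269.8 and 289.8 in C3S basal and 235 and 219 in C3S H2O2. Its C3S H2O2 libraries were the lowest 2 of the 8, the gene overlaps Braf on the opposite strand, and the fall was -0.31 (SE 0.114, adjusted p = 0.0396). For Ndufb2 the adjusted p was 0.0780 without C3S basal library 1, 0.249 without C3S basal library 2 and 0.140 without C3S H2O2 library 2. Ndufb4 read 481 and 419 in the WT basal libraries, 431 and 405 in WT H2O2, 406 and 423 in C3S basal and 367 and 319 in C3S H2O2, again lowest in C3S H2O2, and fell by 0.27 (SE 0.0974, adjusted p = 0.0313). For Ndufb4 the adjusted p was 0.0902 without C3S basal library 1, 0.197 without C3S basal library 2 and 0.224 without C3S H2O2 library 2. The complex III gene Uqcrb (-0.20) and the complex I genes Ndufs1 and Ndufb9 (-0.17) were the other falls. For Uqcrb the adjusted p was 0.153 without C3S basal library 1 and 0.0780 without C3S H2O2 library 2. For Ndufb9 the adjusted p was 0.312 without C3S basal library 1, 0.0558 without C3S basal library 2 and 0.270 without C3S H2O2 library 2.

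The response of C3S cells minus that of WT cells was tested with an interaction term over all 8 libraries. The responses differed for Ndufa13, Ndufa11, Ndufa7, Ndufv1 and Ndufa9 of complex I, Cox6a1 and Cox6b1 of complex IV and Atp5g3 of complex V, by between -0.44 and -0.21 on the log2 scale. These were 8 of 78 members at an adjusted p under 0.05, all with the response in C3S cells below that in WT cells. Over all 13538 genes 9.18% were called in the positive and 3.35% in the negative direction. The members' share in the negative direction was 10.3%. The median difference was -0.12 over the members and 0.02 over all genes, and complexes I, II, III, IV and V had medians of -0.14, -0.06, -0.07, -0.16 and -0.13. None of the 8 reached 2-fold, a size reached by 1.40% of all genes. With the length-trend offset the median of the members was -0.06, with 4 negative calls and 1 positive. Over all genes that offset gave 537 negative and 1280 positive calls, with a median of 0.02. Among all genes of up to 1500 bases the median was -0.02, with 4.55% positive and 3.43% negative calls.

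The largest difference was that of Ndufa13 (-0.44, SE 0.127, adjusted p = 0.0161), and those of the other complex I genes were -0.42 for Ndufa11, -0.38 for Ndufa7, -0.24 for Ndufa9 and -0.33 for Ndufv1 (SE 0.0723, adjusted p = 0.00184). In complex IV the difference was -0.35 for Cox6a1 (SE 0.0806, adjusted p = 0.00291) and -0.25 for Cox6b1, and in complex V -0.21 for the ring gene Atp5g3. Ndufa7 and Ndufa9 encode accessory subunits of complex I. Ndufa7 read 561 and 519 in the WT basal libraries, 659 and 627 in WT H2O2, 561 and 476 in C3S basal and 514 and 427 in C3S H2O2. Its WT H2O2 libraries were the highest, and the C3S basal and H2O2 libraries overlapped. Ndufa9 read 1522 and 1468 in the WT basal libraries, 1649 and 1673 in WT H2O2, 1366 and 1364 in C3S basal and 1332 and 1232 in C3S H2O2, with both WT H2O2 libraries above all others. Cox6b1 read 1139 and 1116 in the WT basal libraries, 1209.7 and 1305 in WT H2O2, 1271 and 1209 in C3S basal and 1174 and 1144 in C3S H2O2, where WT H2O2 library 1 lay among the C3S basal libraries. Atp5g3 read 3662 and 3551 in the WT basal libraries, 3861 and 3939 in WT H2O2, 3762 and 3609.7 in C3S basal and 3669 and 3230.1 in C3S H2O2. In each of the 8 genes the response had a positive sign in WT cells and a negative sign in C3S cells, though none of the C3S falls reached an adjusted p under 0.05. Their adjusted p in C3S cells ran from 0.174 to 0.648. Cox6a1 and Ndufv1 kept the call whichever library was left out, in DESeq2 and under the length-trend offset. The other 6 each lost it without some library and in DESeq2. Without WT basal library 2 the call was lost for all 6, with adjusted p between 0.0931 and 0.150. Without WT H2O2 library 1 the call was lost for Ndufa13, Ndufa9, Atp5g3, Ndufa11 and Ndufa7, with adjusted p between 0.0672 and 0.149. Without WT H2O2 library 2 the call was lost for Ndufa7, Ndufa11, Ndufa9, Atp5g3 and Cox6b1, with adjusted p between 0.0673 and 0.200. Without C3S basal library 1 the call was lost for all 6, with adjusted p between 0.0797 and 0.247. Without C3S H2O2 library 2 the call was lost for all 6, with adjusted p between 0.0855 and 0.334. Without C3S basal library 2 the call was lost for Ndufa11 and Ndufa9, with adjusted p between 0.0538 and 0.0765. The count of calls was 16 without WT basal library 1, 14 without C3S H2O2 library 1, 7 without C3S basal library 2, 3 without WT H2O2 library 1, 3 without WT H2O2 library 2 and 2 without WT basal library 2, C3S basal library 1 or C3S H2O2 library 2. With TMM scaling 14 members were called, all negative. Of the calls made over all genes, 59.5% were then positive, in place of 73.2%.

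**Figure D3:**
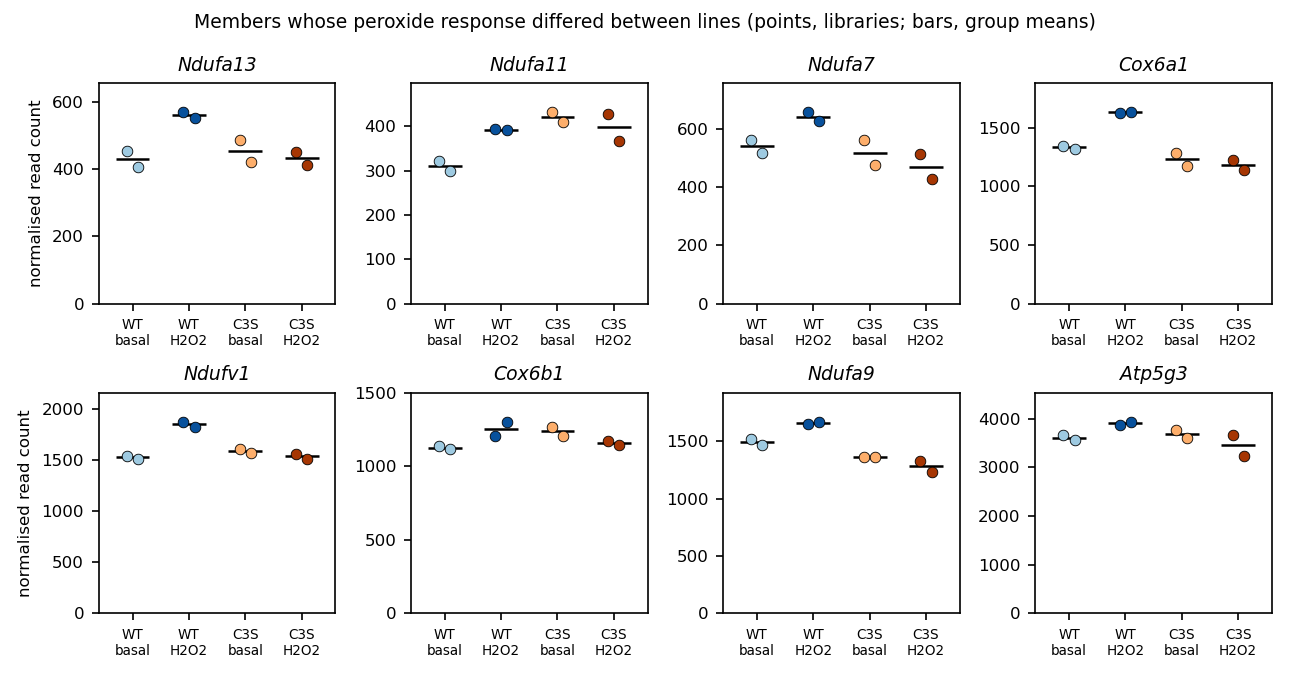
Normalised read counts (y axis, from 0) in each library of the 4 groups (x axis) for the 8 genes whose response differed between the lines. Points are libraries and bars are group means; the WT H2O2 mean is above the WT basal mean in each panel, and the C3S H2O2 mean is below the C3S basal mean.

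**Figure D4:**
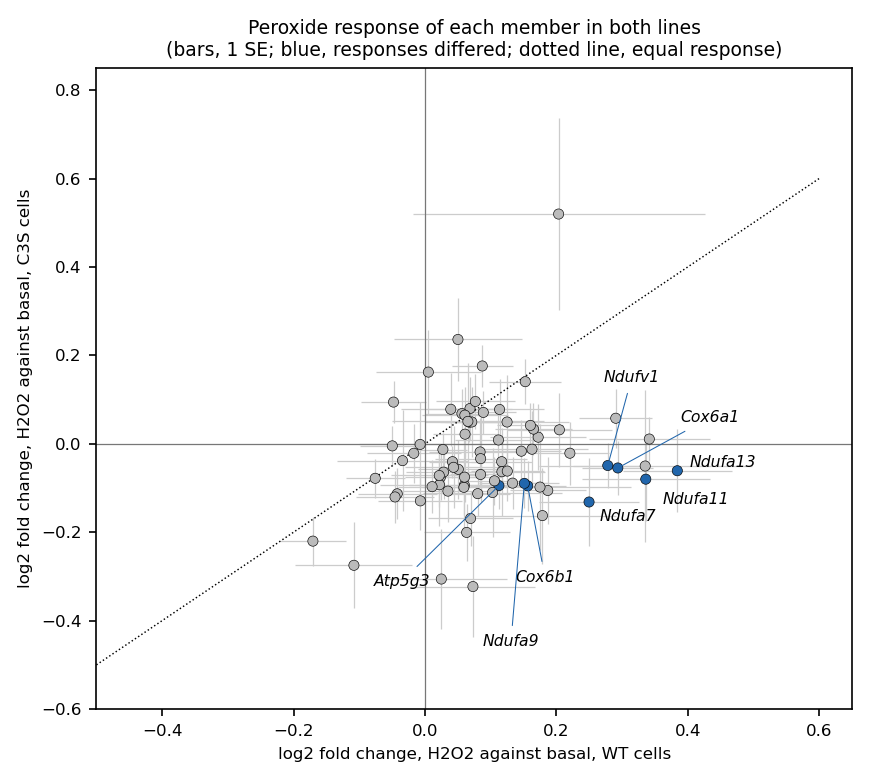
Log2 fold change with peroxide in WT cells (x axis) against C3S cells (y axis) for each tested gene except Ndufs5, with bars of 1 SE. The 8 genes called in the interaction (blue) lie between 0.11 and 0.38 on the x axis and between -0.13 and -0.05 on the y axis, below the dotted line of equal response.

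Without peroxide, C3S cells held more transcript of Cox5a, Atp5b, Ndufa11, Ndufb9 and Atp5d than WT cells, by 0.38 to 0.50 on the log2 scale, and less of Uqcr10, Ndufv3, Atp5j2 and Uqcrq. The lines differed in 39 of the 78 genes, 24 higher and 15 lower in C3S cells. The background was 28.7% of 13453 genes higher and 28.9% lower, against 30.8% and 19.2% of the members. The median was 0.04 over the members and -0.01 over all genes. The called differences were 10 higher and 8 lower in complex I, 2 and 1 in complex II, 2 and 2 in complex III, 5 and 0 in complex IV and 5 and 3 in complex V, and Cycs was lower. The offset for the length trend gave 20 higher and 20 lower, and DESeq2 gave 16 and 7. Over all genes the offset gave 3763 higher and 4129 lower, and DESeq2 gave 3038 and 2857. Both C3S libraries lay above both WT libraries in 32 of 78 members and below them in 22 of 78, against 37.8% and 38.9% of all genes. Of the 39 calls, 22 held whichever library was left out.

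Cox5a, a matrix-side subunit of complex IV (chromosome 9, 57521274 to 57532426), read 1739 and 1569 in the WT basal libraries, 1733 and 1632 in WT H2O2, 2411 and 2286 in C3S basal and 2325 and 2129 in C3S H2O2. All 4 C3S libraries were above all 4 WT libraries. Of its 50-base stretches, 32.0% occur in other genes. The difference was 0.50 at baseline (SE 0.0559, adjusted p = 2.23e-11) and 0.40 after peroxide (SE 0.0498, adjusted p = 3.74e-10). Atp5b (chromosome 10, 128083273 to 128090391) read 26267 and 24812 in the WT basal libraries, 26382 and 26203 in WT H2O2, 34493 and 35439 in C3S basal and 34513 and 33491 in C3S H2O2, again without overlap between the lines, and differed by 0.45 (SE 0.0392, adjusted p = 4.50e-15) at baseline and by 0.37 (SE 0.0310, adjusted p = 6.61e-16) after peroxide. Atp5d, in the central stalk, overlaps Cbarp on the opposite strand, and Atp5a1 overlaps Haus1 there. Atp5d was 0.38 higher at baseline (SE 0.0538, adjusted p = 1.65e-08), and Atp5a1 0.20 (SE 0.0408, adjusted p = 2.25e-05). Of the 5 genes of the F1 part, these 3 were higher and 0 lower in C3S cells in both comparisons. Cox7a2l was higher by 0.38 at baseline (SE 0.0564, adjusted p = 6.27e-08). Uqcrc1, a core protein of complex III, read 2325 and 2331 in the WT basal libraries, 2259 and 2239 in WT H2O2, 2933 and 2848 in C3S basal and 2901 and 2858 in C3S H2O2 and was 0.31 higher (SE 0.0513, adjusted p = 5.81e-07). Ndufa11 was 0.44 higher in C3S cells at baseline (SE 0.0985, adjusted p = 0.000132), while after peroxide its difference was 0.02 (95% interval -0.16 to 0.21, adjusted p = 0.854).

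Uqcr10, a small subunit of complex III (chromosome 11, 4701973 to 4704342), read 554 and 511 in the WT basal libraries, 514 and 557 in WT H2O2, 369 and 334 in C3S basal and 393 and 391 in C3S H2O2. The C3S libraries were all below the WT libraries. It showed the largest fall among the members called at baseline, -0.61 (SE 0.0922, adjusted p = 1.02e-07), and was -0.45 after peroxide (SE 0.0863, adjusted p = 9.13e-06). Ndufv3, a small accessory subunit beside the NADH-binding site of complex I, read 229 and 249.8 in the WT basal libraries, 249 and 252 in WT H2O2, 176 and 181 in C3S basal and 192 and 178 in C3S H2O2 and differed by -0.42 at baseline (SE 0.128, adjusted p = 0.00381). In DESeq2 its adjusted p was 0.0738. Atp5j2, the f subunit of the membrane part of complex V, read 894 and 807 in the WT basal libraries, 899 and 888 in WT H2O2, 652 and 671 in C3S basal and 727 and 675 in C3S H2O2, with a difference of -0.36 (SE 0.0722, adjusted p = 2.09e-05). Uqcrq read 805 and 680.2 in the WT basal libraries, 809 and 769 in WT H2O2, 625 and 570.3 in C3S basal and 655 and 508 in C3S H2O2 and differed by -0.32 (SE 0.0797, adjusted p = 0.000540). For Uqcrq the adjusted p was 0.0552 without WT basal library 1. The membrane anchor Sdhc read 1621 and 1590.0 in the WT basal libraries, 1729 and 1728 in WT H2O2, 1309 and 1348 in C3S basal and 1262 and 1247 in C3S H2O2, with a difference of -0.27 (SE 0.0568, adjusted p = 4.21e-05), while the other subunits of complex II were higher or not called, Sdha at 0.15 (adjusted p = 0.00589), Sdhd at 0.12 (adjusted p = 0.0471) and Sdhb at 0.07 (adjusted p = 0.366). For Sdha the adjusted p was 0.0879 without C3S basal library 2. For Sdhd the adjusted p was 0.240 without WT basal library 2, 0.0754 without C3S basal library 1 and 0.303 without C3S basal library 2.

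**Figure D5:**
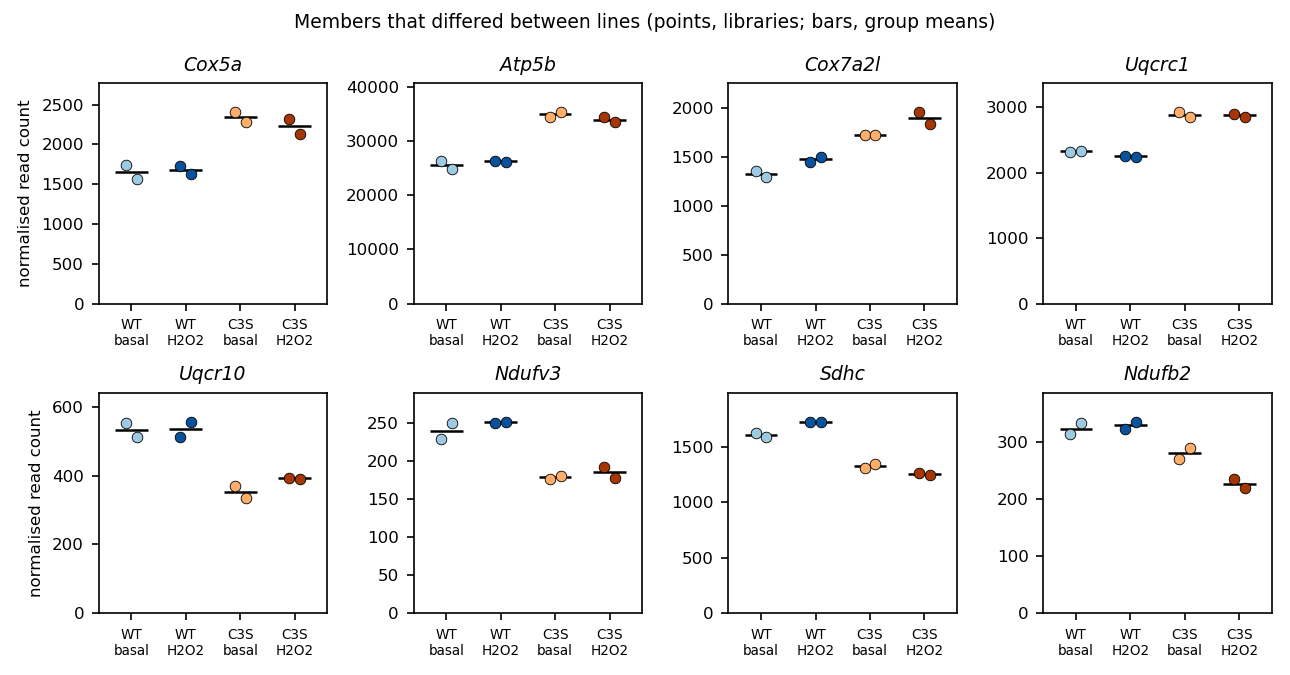
Normalised read counts (y axis, from 0) in each library of the 4 groups (x axis) for 8 genes that differed between the lines; points are libraries and bars are group means. In the upper row the C3S libraries are all above the WT libraries, and in the lower row they are all below them.

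Ndufs5, a small subunit of complex I, was the single member called with a difference of 2-fold or more at baseline, against 15.5% of all genes. It read 7.65 and 7.92 in the WT basal libraries, 19.0 and 16.9 in WT H2O2, 20.3 and 20.7 in C3S basal and 36.4 and 17.1 in C3S H2O2. These are among the lowest counts of the 78 genes, and the difference was 1.41 (SE 0.513, adjusted p = 0.0164). For Ndufs5 the adjusted p was 0.0582 without WT basal library 2, 0.0530 without C3S basal library 1 and 0.0759 without C3S basal library 2. The transcript shares 31.1% of its 50-base stretches with BC002163, which read between 271 and 404 normalised counts. Summed with BC002163, an alternative chosen after seeing the data, the difference was 0.40 (adjusted p = 0.000730). The split of reads between both genes is therefore uncertain, and the direction of the peroxide response of Ndufs5 in C3S cells turned from 0.36 to -0.20 with the sum, neither of them past the threshold.

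After H2O2, C3S cells held less transcript than WT cells of Ndufb2, Cox6a1, Sdhc, Ndufa4 and Ndufa7, by between -0.54 and -0.45 on the log2 scale, and more of Cox5a, Atp5b and Cox7a2l, by 0.37 to 0.40. The lines differed in 46 of 78 members, 15 higher and 31 lower in C3S cells, or 19.2% and 39.7%. Over all 13538 genes tested 32.5% were higher and 31.9% lower. The median was -0.09 over the members and -0.02 over all genes. Complex I had 5 higher and 16 lower, complex II 1 and 1, complex III 2 and 3, complex IV 3 and 3 and complex V 4 and 7, and Cycs was lower. The 10 genes of the membrane part and peripheral stalk of complex V comprised all 7 of its lower calls, with a median of -0.26. Members called with 2-fold or more numbered 0, against 18.5% of all genes. Members whose 2 C3S libraries both lay above or both below the 2 WT libraries numbered 19 and 41 of 78, against 39.7% and 41.5% of all genes.

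The baseline and the peroxide comparison rest on different libraries. Of the members, 13 (16.7%) were higher in C3S cells in both and 15 (19.2%) lower in both, and 0 were called in opposite directions. Over the 13453 genes tested in both, these shares were 24.2%, 23.2% and 0.989%. A further 11 members (14.1%) were called higher at baseline and not after peroxide, and 16 (20.5%) were called lower after peroxide and not at baseline, against 4.19% and 8.44% of all genes. Of these 16, the difference between the comparisons was past the threshold of the interaction for Ndufa13, Ndufa7, Ndufv1, Cox6a1 and Atp5g3. Of the 11, it was so for Ndufa11. Of the 46 calls, 29 held whichever library was left out.

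After peroxide Cox6a1 differed by -0.47 between the lines (SE 0.0543, adjusted p = 5.78e-11), with a baseline difference of -0.12 (adjusted p = 0.0880). Sdhc was at -0.27 at baseline and at -0.46 (SE 0.0524, adjusted p = 2.59e-11) after peroxide, and its interaction was -0.19 with an adjusted p of 0.0894. Ndufb2 differed by -0.54 (SE 0.110, adjusted p = 2.87e-05). For the isoform genes, Ndufa4 read 1513 and 1348 in the WT basal libraries, 1536 and 1588 in WT H2O2, 1234 and 1149 in C3S basal and 1225 and 1052 in C3S H2O2, below WT in all C3S libraries, with -0.27 at baseline (SE 0.0611, adjusted p = 0.000169) and -0.46 after peroxide (SE 0.0583, adjusted p = 2.84e-09). Cox7a2 read 1112 and 1013 in the WT basal libraries, 1021 and 1045 in WT H2O2, 1385 and 1320.2 in C3S basal and 1295 and 1202 in C3S H2O2, above WT in all C3S libraries, with 0.35 (SE 0.0611, adjusted p = 2.47e-06) and 0.27 (SE 0.0581, adjusted p = 4.48e-05). The ring genes went different ways after peroxide. Atp5g1 was at -0.35 (SE 0.0581, adjusted p = 7.08e-07), Atp5g3 at -0.18 (SE 0.0451, adjusted p = 0.000919) and Atp5g2 at 0.14 (SE 0.0420, adjusted p = 0.00419). For Atp5g3 the adjusted p was 0.0661 without WT H2O2 library 2 and 0.0757 without C3S H2O2 library 2. For Atp5g2 the adjusted p was 0.0855 without WT H2O2 library 1, 0.0704 without WT H2O2 library 2 and 0.146 without C3S H2O2 library 1.

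Ndufa13, Sdhb and Ndufs6 are the members the study takes up by name. After peroxide the difference of Ndufa13 between C3S and WT cells was -0.38 (SE 0.0835, adjusted p = 8.48e-05), and at baseline its difference was 0.07 (95% interval -0.12 to 0.25, adjusted p = 0.556). Sdhb, the iron-sulphur subunit of complex II (chromosome 4, 140961203 to 140979193), read 1001 and 1055 in the WT basal libraries, 1123 and 1044 in WT H2O2, 1137 and 1026 in C3S basal and 1121 and 1183 in C3S H2O2. The groups overlapped, and its 4 comparisons gave 0.08, 0.10, 0.07 and 0.09, with adjusted p between 0.188 and 0.366. The 95% interval of the widest, the C3S response, was -0.03 to 0.22. Ndufs6, a zinc-binding accessory subunit of complex I (chromosome 13, 73319838 to 73328542), read 374 and 341 in the WT basal libraries, 389 and 392 in WT H2O2, 309 and 284 in C3S basal and 319.9 and 292 in C3S H2O2. All C3S libraries were below all WT libraries, with a difference of -0.28 at baseline (SE 0.104, adjusted p = 0.0201) and -0.35 after peroxide (SE 0.0990, adjusted p = 0.00167), and neither peroxide response was called (adjusted p = 0.294 and 0.752). At baseline the adjusted p was 0.143 without WT basal library 1 and 0.208 without C3S basal library 2. Ndufs6 overlaps Mrpl36 on the opposite strand.

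Of 16 tested assembly factors of complex I, 5 rose (31.2%) and 1 fell (6.25%) in WT cells, where 18.1% of all genes were called higher and 26.2% lower, and 2 rose (12.5%) in C3S cells, where 17.2% of all genes were called higher. Of 24 assembly factors of complex IV, 3 rose (12.5%) and 4 fell (16.7%) in WT cells and 3 fell (12.5%) in C3S cells, against 20.8% of all genes lower there. The 76 mitochondrial ribosomal protein genes, whose products make the mitochondrially encoded subunits, gave 17 rises (22.4%) and 3 falls (3.95%) in WT cells with a median of 0.08. In C3S cells they gave 4 rises (5.26%) and 5 falls (6.58%). In C3S against WT cells 13 of them were higher (17.1%) and 26 lower (34.2%) at baseline, beside 28.7% and 28.9% of all genes, and 9 higher (11.8%) and 34 lower (44.7%) after peroxide with a median of -0.18, beside 32.5% and 31.9% of all genes. The interaction called 0 of the 76, and 9.18% of all genes in the positive and 3.35% in the negative direction. Of 23 genes of the tricarboxylic acid cycle and its kinases, 4 rose (17.4%) and 3 fell (13.0%) in WT cells. Pdk1, the kinase that holds back entry of pyruvate into the cycle, read between 396 and 457 in WT basal, 616 and 638 in WT H2O2, 654 and 656 in C3S basal and 1358 and 1379 in C3S H2O2. It rose by 1.06 on the log2 scale in C3S cells (SE 0.0604, adjusted p = 3.33e-11) and by 0.56 in WT cells, and the responses differed by 0.51 (SE 0.101, adjusted p = 0.000616).

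The uncoupling protein gene Ucp2 read between 3362 and 4028 normalised counts in the WT libraries and between 1210 and 1406 in the C3S libraries, a difference of -1.49 at baseline (SE 0.0545, adjusted p = 4.03e-31). Of 19 tested regulators of mitochondrial biogenesis, 3 were higher (15.8%) and 5 lower (26.3%) in C3S cells at baseline, with a median of 0.04. Over all genes these shares were 28.7% and 28.9%. After peroxide 6 of the regulators were higher (31.6%) and 7 lower (36.8%), with a median of -0.06, beside 32.5% and 31.9% of all genes. Regulators called with at least 2-fold change were 1 at baseline and 3 after peroxide, all lower. That size was reached, in either direction, by 15.5% of all genes at baseline and 18.5% after peroxide. Ppargc1b, a coactivator, read between 33.6 and 68.0 in WT libraries and between 2.18 and 9.61 in C3S libraries, a difference of -2.85 at baseline (SE 0.442, adjusted p = 2.52e-07). Its counts were low. The mitochondrial transcription factors Tefm and Mterf1a, the other 2, differed between C3S and WT cells after peroxide by -1.09 (SE 0.160, adjusted p = 3.37e-08) and -1.29 (SE 0.320, adjusted p = 0.000424). Among the higher ones, the transcription factor gene Yy1 differed by 0.50 at baseline (SE 0.0562, adjusted p = 2.81e-11) and by 0.63 after peroxide (SE 0.0478, adjusted p = 1.26e-17), and Gabpa by 0.20 after peroxide (SE 0.0421, adjusted p = 3.31e-05). Yy1 and Gabpa stayed below 2-fold and are picked from the 6 regulators higher after peroxide, beside 7 lower. The Nrf1 transcript is not described here, and a link of these transcripts to the promoter letters was not tested.

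Of the 9 genes with the Nrf1 letters, Ndufa11, Cox6a1 and Atp5g2 rose in WT cells, and Ndufa11 and Cox6a1 were called in the interaction. Among the 57 tested members with a window and no such match, 16 rose in WT cells and 6 were called in the interaction. Over all genes, 18.1% rose in WT cells and 3.35% were called negative in the interaction. The median log2 response in WT cells was 0.08 for the 9 and 0.08 for the 57. In C3S against WT cells after peroxide, 3 of the 9 were higher and 3 lower, with a median of 0.09. The 57 had 9 higher and 24 lower in that comparison, with a median of -0.12, beside 32.5% and 31.9% of all genes. Cycs, which holds the site 60 bases before its start, was lower in C3S cells at baseline, whereas Ndufa11, which holds it at the same distance, was higher. Sdhb holds it 54 bases before its start and was called in no comparison. Uqcr11 with an ETS site fell in C3S cells, Atp5h with one rose in WT cells and Uqcrh with one was called in no comparison.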

How the data were processed

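RNA from 8 libraries was sequenced by the authors as single-end reads, trimmed with Scythe and Sickle, aligned with TopHat2 2.0.10 to mm10, and uniquely mapped exon reads were counted per gene; the libraries were directional, made with a kit that marks strand, but the counting program is not given in the sources used here, nor is whether it used strand, so an overlap on the opposite strand is named as a limit. The deposited table holds expected counts, of which 58.4% of the values above 0 are whole (tolerance 1e-09), and they were rounded to whole numbers before testing. How values that are not whole arose from uniquely mapped reads is not given in the sources used here. The authors also deposited a second sheet with these counts divided by 1 size factor per library (unit: signal), here called normalised read counts. Columns that hold a single value per group, 24 over both sheets, were not used, nor were 27 rows with date-like names, which held 0.280% of the counts. Library totals of 17050016 to 22260814 counts set the precision, and counting limits cover counting error only.

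Genes with a mean of at least 10 counts in some group were tested with edgeR 4.0.16 in R 4.3.3 (quasi-likelihood, robust, median-of-ratios size factors), on the 4 libraries of a comparison and on all 8 for the interaction, and p-values were adjusted by Benjamini-Hochberg over all genes tested. The calls used an adjusted p under 0.05, and fold changes and standard errors are on the log2 scale. The fits of the 4 comparisons were tested on simulated data with the same dispersion for all genes, and the interaction fit was not. Gene positions, lengths and shared 50-base stretches come from GENCODE M21 transcripts (GRCm38, equal to mm10), and promoter letters from RefSeq. Alternatives were TMM, DESeq2 1.42.0, no filter or a minimum of 50, a fit of all libraries, a replicate block, non-robust dispersion, each library left out and, chosen after seeing the data, a length offset, size factors of 4 libraries, another transcript length and a summed gene pair. The members and lists were chosen with earlier results of these data known. Values in every library are given for members called with at least 2-fold change, for the 3 largest rises and falls in each test among called members with a mean of at least 100 counts, for Ndufa13, Sdhb and Ndufs6, for isoforms, and for the highest and lowest member per kb of each complex. Other members with values, such as Ndufv1, Atp5h, Uqcrc1 and Ndufa9, were chosen after their values were seen. Over all genes, numbers of libraries within a group did not pair the samples.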

Additional observations from a re-analysis of the deposited data

Results flagged for a closer look

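The peroxide response of 8 genes differed between the lines by the interaction test, with a log2 response in C3S minus WT cells of -0.44 for Ndufa13, -0.42 for Ndufa11, -0.38 for Ndufa7, -0.35 for Cox6a1, -0.33 for Ndufv1, -0.25 for Cox6b1, -0.24 for Ndufa9 and -0.21 for Atp5g3. The largest adjusted p among them was 0.0424, in edgeR's quasi-likelihood test over all genes. Both WT H2O2 libraries were higher than both WT basal libraries in each of the 8. With 2 libraries in a group, no library could be tested as standing apart from its group.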

How the results depend on the processing

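With 2 libraries in a group, 1 library can decide a call. Leaving out 1 library in turn gave 7 to 33 called members in the WT response, with a median of 0.036 to 0.14, 2 to 16 in the C3S response, with a median of -0.11 to 0.018, 28 to 37 between the lines at baseline, with a median of -0.0086 to 0.095, 37 to 46 after peroxide, with a median of -0.15 to -0.067, and 2 to 16 in the interaction, with a median of -0.19 to -0.066. Members called with at least 2-fold change then numbered 0 to 1 at baseline and 0 to 1 after peroxide. DESeq2 called 6 in the WT response, 2 in the C3S response, 23 at baseline and 2 in the interaction. The interaction gave 14 with TMM, 14 with no filter and 5 with the length-trend offset, where its median was -0.058. TMM or size factors of the 4 libraries gave 1 member of at least 2-fold change in the WT response, while DESeq2 gave 0 at baseline. A minimum of 50 counts also gave 0 at baseline, since Ndufs5 did not reach that filter and was not tested. The cause of the other moves was not tested.

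A few small values turned sign, none of them past the threshold. With 1 library left out in turn, the C3S response ran from -0.17 to 0.042 for Ndufa13 and from -0.017 to 0.11 for Ndufs6, the baseline difference from -0.036 to 0.18 for Ndufa13 and from -0.0015 to 0.15 for Sdhb, and the interaction of Sdhb from -0.057 to 0.090. The interaction of Sdhb was -0.022 with TMM and that of Ndufs6 0.015 with the length offset, and the C3S response of Ndufs5 was -0.20 when summed with BC002163. Single values were tallied for members called in the main fit, for Ndufa13, Sdhb and Ndufs6, and for Ndufs5 summed with BC002163. In this tally 1467 values kept their direction and their side of the threshold, 259 lost the call and 14 turned. Other members called only under an alternative were left out of it.

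Replicate numbers are shared by the groups. Deviations of same-numbered libraries correlated by 0.009 to 0.03 over 10813 genes in the 4 comparisons, so over these genes the numbers did not pair the samples. The members' median log2 deviation from their mean over all libraries was 0.002 and -0.094 in WT basal libraries 1 and 2. It was 0.069 and 0.084 in WT H2O2, 0.057 and -0.040 in C3S basal and 0.017 and -0.077 in C3S H2O2. The SD of these medians between replicates was 0.059. Pairing among the members alone was not tested. With the replicate number as a block, 22 members were called in the WT response, 10 in the C3S response, 44 at baseline, 47 after peroxide and 14 in the interaction.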
